A study of Brassica rapa subsp. pekinensis with 8 samples.

Results

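The genes described here are the Brassica rapa counterparts of 22 Arabidopsis loci that make, decorate, transport or regulate flavonoids and anthocyanins. They were found by the Arabidopsis locus that the deposited annotation gives each gene, and 49 of 38008 genes carried 1 of these loci. They covered 21 of the 22 loci, since no gene was annotated to MYB11, a regulator of flavonols. RNA was sequenced from pooled young Chinese cabbage plants of line 50, a late-bolting inbred line, and line 4004, an early-bolting inbred line. Plants were taken before vernalization (day 0, in a warm growth room) or after 35 days in a cold room (day 35). Line 50 had 3 libraries per day, numbered 1 to 3, and line 4004 had 1 per day, numbered 3. The labels call the tissue leaf and the methods call it shoot. Light was given for fewer hours a day in the cold room, and the day 35 plants were older, so cold, light period and age cannot be told apart.

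Flavonoids are made from phenylpropanoid precursors by chalcone synthase (CHS), chalcone isomerase (CHI) and flavanone 3-hydroxylase (F3H), with F3′H adding a hydroxyl group to the B ring. These early steps feed the flavonols, made by flavonol synthase (FLS1), and the anthocyanins, the red and purple pigments. Anthocyanins need the late enzymes dihydroflavonol reductase (DFR) and leucoanthocyanidin dioxygenase (LDOX), then sugar transferases, and the glutathione transferase TT19 that brings them to the vacuole. In Arabidopsis the late genes are switched on by a complex of a MYB factor (PAP1 or PAP2), a bHLH factor (TT8, GL3 or EGL3) and the WD40 protein TTG1, and MYBL2 represses them. Flavonol genes answer to another group of MYB factors, MYB11, MYB12 and MYB111. In leaves and shoots of Brassica the pathway is known for its response to light, cold and nutrient supply.

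Libraries held 18.3 M to 27.1 M counts. Values below are the authors' normalized read counts unless a log2 fold change is named. They were not divided by gene length, so levels are compared between libraries and not between genes. The lowest deposited count was 1 in every library, which looks like an added constant, and a count of 1 was read here as no reads. Folds by reads have 1 subtracted and depend on this reading, and the ratios of normalized means are given beside those at day 0. Replicates 1 and 2 of line 50 were alike (Spearman correlation across genes 0.988 at day 0 and 0.993 at day 35), whereas replicate 3 stood apart from them (0.895 to 0.923). At day 0 replicate 3 was closer to the line 4004 library (0.930) than to the other line 50 libraries. Markers of leaf, the Rubisco and light-harvesting genes, were abundant in all 8 libraries, with summed values from 374140 in line 4004 at day 0 to 995929 in line 50 replicate 3 at day 0. Summed flower markers were 35 to 74, and summed root markers 1245 to 2920. The root sum came from PHO1, SCR and SHR, while RHD6 and the CASP1 genes were at 1 to 2 in every library. In bulk samples such as these, fewer cells of a type and less RNA per cell cannot be told apart.

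Before vernalization, BrDFR and the sugar transferase genes BrUGT79B1 and BrUGT75C1 were much higher in line 4004 than in line 50, whereas BrLDOX was well read in both lines. Of the 40 members that could be tested, 5 were higher in line 4004 at day 0 and 0 were lower, against 1.49% of all tested genes called, 1.2% higher and 0.292% lower. They were BrDFR, a pair of BrUGT79B1 copies that are read below as 1 signal, BrUGT75C1 and BrTT8. The BrUGT79B1 copies had raw counts of 154 and 153 in line 4004 at day 0 and at most 7 in any other library. They passed the filter on low counts through that library, so their calls rest on the library that let them in. A gene was called at an edgeR adjusted p under 0.05 and a change of at least 2-fold. The line 4004 side of this comparison is 1 library, which was assumed to vary like a line 50 replicate.

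BrDFR (Bra027457, annotated to AT5G42800), the gene for the first enzyme committed to anthocyanins and tannins, had 6, 6 and 3 in the line 50 libraries at day 0. It had 333 in the line 4004 library, far above each of them. By reads this was a 70.1-fold difference (95% counting interval 40.4 to 133), against 66.6-fold by normalized means, and the fitted log2 fold change was 5.81 ± 0.71 (SE, edgeR adjusted p = 0.0168). BrDFR was then low in all 3 line 50 libraries at day 35, at 2, 10 and 2, and at 3 in line 4004 at day 35. So 1 of 8 libraries held nearly all of its reads.

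The 2 genes for UGT79B1 (AT5G54060), which adds a xylose to the anthocyanin sugar, showed the same shape. Bra003021 had 1, 2 and 2 in line 50 at day 0, 5, 1 and 5 at day 35, 152 in line 4004 at day 0 and 3 at day 35. Bra035004 had the same values except for 151 in line 4004 at day 0. The raw counts of the copies differed by at most 1 read in any library, so they cannot be told apart and are read as 1 signal. By reads Bra003021 was 139-fold higher in line 4004 at day 0 (46.6 to 680), against 91.2-fold by normalized means, and the fitted log2 fold change was 6.02 ± 0.56 (adjusted p = 0.00805).

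BrUGT75C1 (Bra038445, AT4G14090), which encodes a further glucosyltransferase of anthocyanins, had 15, 14 and 19 in line 50 at day 0 and 262 in line 4004. It had 5, 12 and 25 in line 50 at day 35 and 34 in line 4004. The day 0 difference was 17.5-fold by reads (12.6 to 25.0) and 16.4-fold by normalized means, with a log2 fold change of 3.94 ± 0.69. Its adjusted p of 0.04998 lay at the threshold, and rose to 0.0547 with the size factors of DESeq2 and 0.0681 with 1 subtracted from every count.

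BrTT8 (Bra037887, AT4G09820), the bHLH partner of the anthocyanin MYB factors, was the regulator called at day 0. It had 1, 2 and 2 in line 50 and 19 in line 4004, a log2 fold change of 3.04 ± 0.50 (adjusted p = 0.0389). By reads the difference was 17.2-fold, with a wide interval of 5.07 to 90.9 because the line 50 libraries held 3 reads in all, and by normalized means it was 11.4-fold. For fits with a library left out, the share of all genes called was not computed. Their counts therefore say nothing about the members as a set. Without replicate 1 or without replicate 2 of line 50 at day 0, 0 members were called, with 11 and 10 at an unadjusted p under 0.05. The log2 fold changes of the 5 genes then lay between 2.87 and 6.25, with adjusted p-values from 0.0681 to 0.232.

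**Figure D1:**
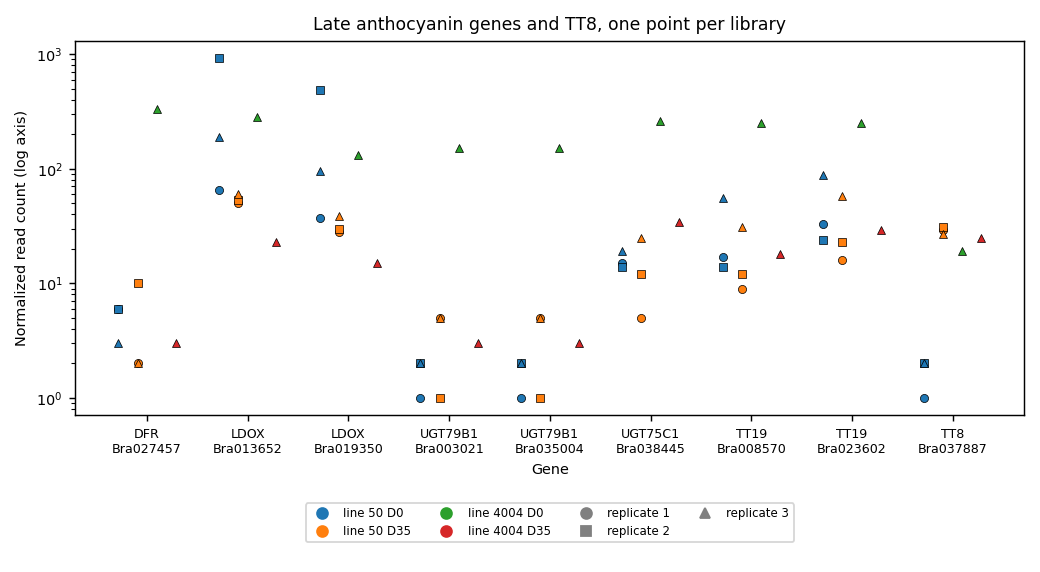
Normalized read counts (log axis) of late anthocyanin genes and BrTT8, 1 point per library, with colours for line and day and shapes for the replicate number. BrDFR, BrUGT79B1 and BrUGT75C1 are highest in line 4004 at day 0 (333, 152 and 262), whereas BrTT8 is at 1 to 2 in line 50 at day 0 and at 19 or more in the other 5 libraries.

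The vacuolar carrier BrTT19 (AT5G17220) was also highest in line 4004 at day 0. Bra008570 had 17, 14 and 56 in line 50 at day 0 and 250 in line 4004, and Bra023602 had 33, 24 and 88 against 252. The line 4004 values lay above all 3 line 50 values, with replicate 3 nearest. Their log2 fold changes were 3.03 ± 0.89 (adjusted p = 0.196) and 2.29 ± 0.89 (adjusted p = 0.329). With the replicate number as a block, that of Bra008570 was 2.05 (adjusted p = 0.0347) and was called.

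BrLDOX (AT4G22880), which acts just after DFR, had another pattern. Bra013652 had 65, 929 and 190 in line 50 at day 0 and 280 in line 4004. Bra019350 had 37, 487 and 95 against 132. Replicate 2 of line 50 stood far above the other line 50 libraries for both copies, and above line 4004. That library was not high for the other late genes, with 6 for BrDFR, 2 for BrUGT79B1 and 14 for BrTT19 Bra008570. The ratio of the copies was 1.53 to 2.12 in all 8 libraries. The log2 fold change of Bra013652 between lines at day 0 was -0.53 ± 1.21 (adjusted p = 0.923), and it was 1.02 without that library, 0.20 with the block and 0.39 with only the libraries numbered 3.

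All 7 BrCHS genes (AT5G13930) had higher values in line 4004 than in every line 50 library at day 0, but 0 were called by edgeR, with 5 at an unadjusted p under 0.05, against 13.5% of all tested genes. DESeq2 called 2 of the 7, against 5.24%. The gene with the most reads, Bra023441, had 358, 405 and 1399 in line 50 and 3205 in line 4004. Bra008792 had 215, 225 and 842 against 2426. Summed over the 7 copies, line 50 had 1047, 1156 and 3996, and line 4004 had 10267. Replicate 3 of line 50 was thus well above replicates 1 and 2, and this was already so in its unscaled counts of Bra023441, which were 373, 440 and 866.

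The log2 fold changes of the 7 genes were 1.95 to 2.40 (adjusted p = 0.201 to 0.441). Against replicate 3 of line 50 alone they were 0.99 to 1.43. With the replicate number as a block 3 of the 7 were called, Bra008792 at 1.505 (adjusted p = 0.0392), Bra036307 at 1.45 (adjusted p = 0.0485) and Bra041147 at 1.71 (adjusted p = 0.0459). Copies of CHS resemble each other, and how reads that match several copies were counted was not stated, so values of single copies are less certain than their sum.

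**Figure D2:**
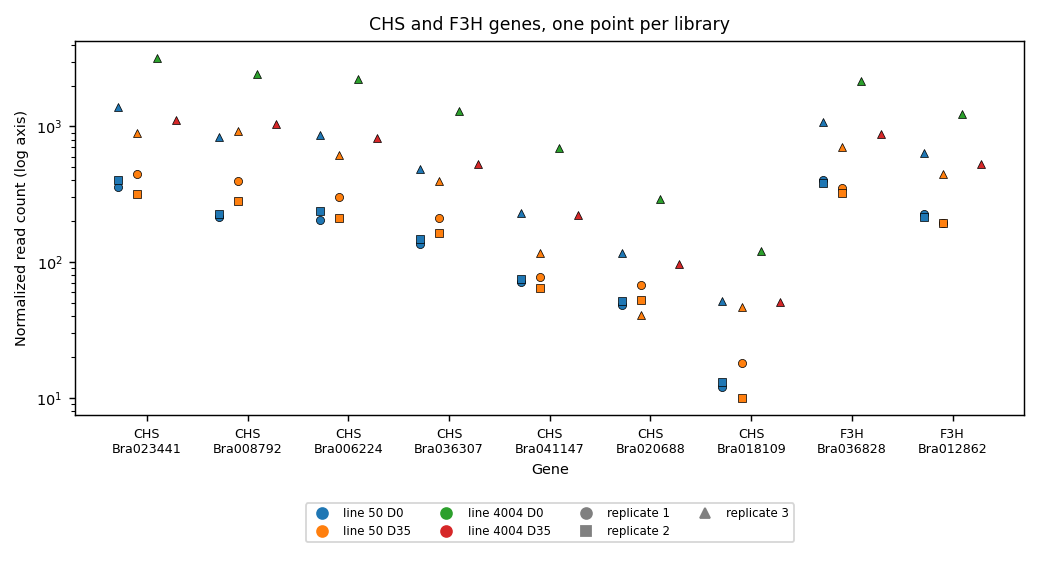
Normalized read counts (log axis) of the 7 BrCHS genes and the most abundant BrF3H genes, 1 point per library, with colours for line and day and shapes for the replicate number. The line 4004 day 0 library is highest for each gene (3205 for Bra023441), and replicate 3 of line 50 at day 0 (1399 for that gene) lies above replicates 1 and 2 (358 and 405).

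The other early enzymes leaned the same way. BrF3H (AT3G51240) Bra036828 had 403, 386 and 1085 in line 50 at day 0 and 2145 in line 4004 (log2 fold change 1.69 ± 0.74, adjusted p = 0.388). BrF3′H (Bra009312, AT5G07990) had 7, 6 and 27 against 132 (3.27 ± 0.88, adjusted p = 0.156). With the block it was called, at 2.39 (adjusted p = 0.0341). BrCHI (AT3G55120) differed less, with 160, 156 and 120 against 206 for Bra003209 (0.46 ± 0.46, adjusted p = 0.768). All 17 tested genes for CHS, CHI, F3H and F3′H had a log2 fold change above 0, from 0.43 to 3.27. By edgeR 0 of them were called, with 8 at an unadjusted p under 0.05 against 13.5% of all genes, and DESeq2 called 3 against 5.24%.

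The flavonol synthase gene BrFLS1 (Bra009358, AT5G08640) had 296, 287 and 685 in line 50 at day 0 and 718 in line 4004 (log2 fold change 0.68 ± 0.60, adjusted p = 0.731). BrUGT78D2 (Bra023594, AT5G17050), whose product adds glucose to both flavonols and anthocyanins, had 385, 398 and 752 against 453 (-0.26 ± 0.62, adjusted p = 0.928). The line 4004 value lay within the line 50 range for BrUGT78D2 and just above it for BrFLS1.

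Among the regulators, the MYB activators had few reads. BrPAP1 (AT1G56650) Bra001917 had 3, 2 and 2 in line 50 at day 0 and 13 in line 4004 (log2 fold change 2.16 ± 0.50, adjusted p = 0.112). Without the filter on low counts it was called (2.19, adjusted p = 0.0393). BrPAP2 (Bra004162, AT1G66390) had 1, 1 and 2 against 4 and was too low to test. BrEGL3 (AT1G63650) Bra027796, another bHLH factor, had 53, 50 and 73 against 147 (1.26 ± 0.41, adjusted p = 0.235), and BrGL3 (Bra025508, AT5G41315) had 37, 21 and 15 against 52 (1.05 ± 0.53, adjusted p = 0.464).

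BrTTG1 (Bra009770, AT5G24520) had 580, 589 and 1088 in line 50 at day 0 and 768 in line 4004, inside the line 50 range. Of the flavonol regulators, BrMYB12 (AT2G47460) Bra000453 had 32, 24 and 54 in line 50 and 63 in line 4004 (log2 fold change 0.70 ± 0.55, adjusted p = 0.683). Its copy Bra004456 had 19, 13 and 34 against 62 (1.44 ± 0.61, adjusted p = 0.371), so both copies lay above all 3 line 50 libraries. BrMYB111 (AT5G49330) Bra037419 had 81, 81 and 86 against 75. The repressor BrMYBL2 (Bra016164, AT1G71030) went the other way, with 468, 270 and 203 in line 50 and 134 in line 4004 (log2 fold change -1.26 ± 0.51, adjusted p = 0.351). Both BrMYBL2 copies and both tested BrMYB111 copies were the 4 members below all 3 line 50 libraries at day 0, a position held by 22.8% of all tested genes.

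Over all 40 tested members, 32 had a log2 fold change above 0 at day 0 and the median was 1.21, against -0.04 over all tested genes. The line 4004 library lay above all 3 line 50 libraries for 31 of 40, against 33% of all tested genes. It was the highest of all 8 libraries for 24 of 40, against 16.4%. Replicate 3 was the highest of the line 50 libraries at day 0 for 24 of 40, against 38.8%, and at day 35 for 23 of 40, against 39.6%. With the replicate block 10 members were called, against 7.58% of all genes, adding BrF3′H, BrTT19 Bra008570 and 3 BrCHS genes. DESeq2 called 9, against 5.24%. The 9 members without a test had a normalized read count of at most 9 in any library. A gene could also enter the test through reads in a single line 4004 library, so the 40 tested members are not all members. Both BrUGT79B1 copies entered in this way, as did BrPAP1 Bra001917, with a raw count of 14 there and at most 5 elsewhere. The counts above take the BrUGT79B1 copies as separate members. Summed leaf markers at day 0 were 536589 to 995929 in line 50 and 374140 in line 4004, and their part in the line difference was not tested.

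**Figure D3:**
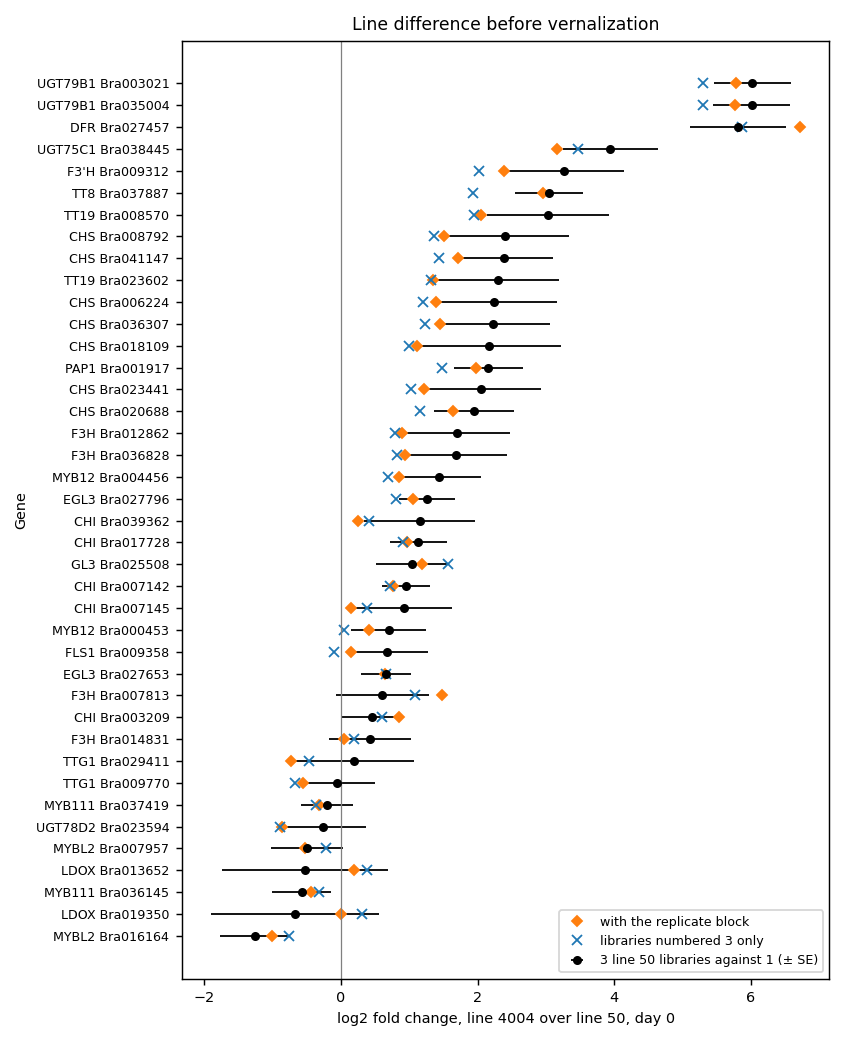
Log2 fold change of line 4004 over line 50 at day 0 for the 40 tested members, with black points and bars for the estimate and its SE over all libraries, orange diamonds for the fit with the replicate number as a block, and blue crosses for the libraries numbered 3 alone. BrUGT79B1 and BrDFR lie near 6 in the first of these, and the 7 BrCHS genes move from 1.95 to 2.40 down to 0.99 to 1.43 with the libraries numbered 3.

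In line 50, the bHLH gene BrTT8 rose over 35 days of vernalization, and 39 of the 40 tested members were not called. Of all tested genes 3.92% were called, 2.23% higher and 1.69% lower. BrTT8 had 1, 2 and 2 at day 0 and 29, 31 and 27 at day 35, so the days did not overlap. By reads it rose 26.1-fold (8.62 to 129), from 3 reads to 84 over the 3 libraries, with adjusted p = 0.0101.

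Late genes that depend on TT8 in Arabidopsis were not called higher in the same libraries. BrDFR had 6, 6 and 3 and then 2, 10 and 2 (log2 fold change -0.17 ± 0.68, adjusted p = 0.934). BrTT19 Bra008570 had 17, 14 and 56 and then 9, 12 and 31 (-0.79 ± 0.76, adjusted p = 0.646). BrLDOX Bra013652 went from 65, 929 and 190 to 50, 53 and 60, below each day 0 library. Its log2 fold change of -2.82 ± 0.90 was not called by edgeR (adjusted p = 0.140) but was by DESeq2, as was that of its copy. DESeq2 called 3 members in all, these and BrTT8, against 9.18% of all genes. Without replicate 2 of day 0 the log2 fold change of Bra013652 by edgeR was -1.27 (adjusted p = 0.396).

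Of the early genes, BrCHS Bra023441 had 445, 319 and 898 at day 35, again with replicate 3 on top, after 358, 405 and 1399 (log2 fold change -0.38 ± 0.69, adjusted p = 0.831). Over the 7 copies the changes were -0.55 to 0.32, and 0 were called by edgeR or DESeq2, with 0 at an unadjusted p under 0.05. BrF3H Bra036828 had 351, 324 and 701 at day 35 (-0.44 ± 0.57, adjusted p = 0.747). BrF3′H had 20, 20 and 44, each above its own replicate number at day 0 (7, 6 and 27). It was called with the block (1.24, adjusted p = 0.0427) and not without it (1.11 ± 0.74, adjusted p = 0.469).

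BrFLS1 had 670, 579 and 847 at day 35 after 296, 287 and 685, higher in 3 of 3 pairs (log2 fold change 0.72 ± 0.45, adjusted p = 0.433). With the block the log2 fold change was 0.85 (adjusted p = 0.0349), under the 2-fold limit, and without replicate 3 of both days it was 1.12 (adjusted p = 0.00114) and was called. BrUGT78D2 had 507, 502 and 908 after 385, 398 and 752 (0.33 ± 0.44, adjusted p = 0.753). BrUGT75C1 was at 5, 12 and 25 after 15, 14 and 19. Replicate 3 was again the highest for these 3 genes at both days.

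BrMYBL2 Bra016164 had 199, 151 and 161 at day 35 after 468, 270 and 203, so that the days did not overlap (log2 fold change -0.85 ± 0.34, adjusted p = 0.218). BrMYB111 Bra037419, a flavonol regulator, had 120, 102 and 106 after 81, 81 and 86 (0.40 ± 0.26, adjusted p = 0.467). With BrTT8 it made the 2 members whose day 35 values all exceeded day 0, against 12.4% of all tested genes, and 7 members lay wholly below, against 12.9%. That is 5% and 17.5% of the tested members. With the block 4 members were called, against 15.6% of all genes: BrTT8, BrF3′H, the weakly read BrF3H Bra014831 (13, 7 and 11 to 1, 1 and 3, log2 fold change -2.53, adjusted p = 0.0228) and BrMYB12 Bra004456 (19, 13 and 34 to 4, 9 and 8, -1.46, adjusted p = 0.0447). Without replicate 3 of both days 5 were called. The share of all genes was not computed for this or the next fits, so their counts say nothing about the members as a set. Without replicate 1 or replicate 2 of either day alone 0 were called, with 3 to 5 at an unadjusted p under 0.05. The adjusted p of BrTT8 was then 0.0525 to 0.0852.

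Of the shoot meristem markers, STM and KNAT1 rose with BrTT8 in line 50. STM (Bra027050) went from 1, 2 and 2 to 59, 52 and 66. KNAT1 (Bra000638) went from 1, 1 and 2 to 81, 67 and 115. The WUS genes and CLV3 stayed at 1 to 3 in line 50 at both days. The summed value over all 6 genes was 6 to 12 at day 0 and 126 to 189 at day 35. In line 4004 at day 0, BrTT8 had 19 while STM and KNAT1 were each at 1. The part of the meristem markers in the rise of BrTT8 in line 50 was not tested.

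**Figure D4:**
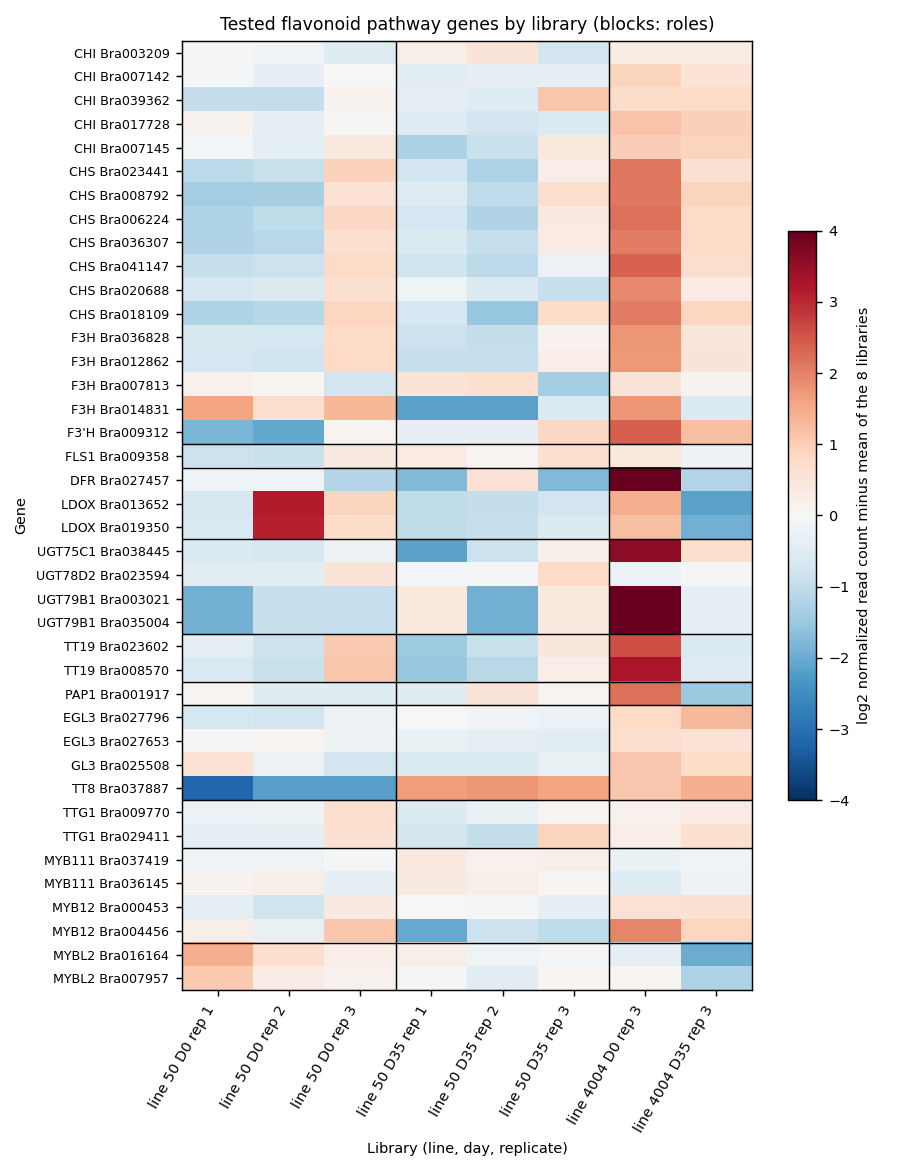
Normalized read counts of the members in each of the 8 libraries, with genes in blocks by their role and colour giving the log2 value minus the gene's mean over the libraries. Only the 40 tested members are drawn. The late genes BrDFR and BrUGT79B1 stand out in the line 4004 day 0 column (333 and 152), and BrLDOX Bra013652 in replicate 2 of line 50 at day 0 (929).

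In line 4004, pathway genes were lower after 35 days, and most so the late anthocyanin genes. Each day was a single library, so this comparison was not tested. The intervals cover counting error only. Of 31 members with a mean of at least 50 over the pair of libraries, 19 were at least 2-fold lower at day 35 and 0 at least 2-fold higher. Among all genes at that level 7.4% were lower and 4.95% higher by that much. BrDFR, BrUGT79B1, BrTT19, BrLDOX, BrUGT75C1 and BrMYBL2 Bra016164 were under 50 at day 35. They reached that mean through the day 0 library where they were high, so being lower at day 35 was built into their entry. The BrUGT79B1 copies are counted here as separate members. The median log2 ratio of the members was -1.23, against 0.01 over all genes. With library totals as the scale, the counts for the same 31 members were again 19 and 0.

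The late genes had the lowest ratios between these libraries. BrDFR went from 333 to 3, 113-fold lower by reads (38.5 to 553), and BrUGT79B1 Bra003021 from 152 to 3, 77.7-fold lower (21.2 to 648). BrTT19 Bra008570 went from 250 to 18, 14.2-fold lower (8.78 to 24.3). BrLDOX Bra013652 went from 280 to 23, 12.5-fold lower (8.14 to 19.98). BrUGT75C1 went from 262 to 34, 7.89-fold lower (5.51 to 11.6). The order of BrTT19, BrLDOX and BrUGT75C1 is within their counting intervals.

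The early genes were lower by a smaller factor. The 7 BrCHS genes were 2.31-fold to 3.14-fold lower, and Bra023441 went from 3205 to 1123. BrF3H Bra036828 went from 2145 to 878, 2.45-fold lower (2.26 to 2.65), and BrF3′H from 132 to 57, 2.31-fold lower (1.69 to 3.21). Next to these, BrFLS1 went from 718 to 465, 1.54-fold lower (1.37 to 1.73), while it had been higher in the 3 line 50 pairs. BrCHI Bra003209 was at 206 and 207, and BrUGT78D2 was at 453 and 516.

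Among the regulators, BrPAP1 Bra001917 went from 13 (counting interval 7.85 to 23.0) to a count that stands for no reads (0.97 to 4.57). The value of 13 was 4.45-fold above a floor of 3 counts in the day 35 library, without counting error. BrTT8 was at 19 and then 25, with overlapping intervals. The repressor BrMYBL2 Bra016164 was also lower, from 134 to 43, 3.19-fold (2.25 to 4.61). BrEGL3 Bra027796 was at 147 and 208, BrTTG1 at 768 and 853, BrGL3 at 52 and 41, BrMYB12 Bra000453 at 63 and 64, and BrMYB111 Bra037419 at 75 and 83. The late enzymes and the repressor were lower together, whereas BrTT8, BrEGL3 Bra027796 and BrTTG1 were not.

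**Figure D5:**
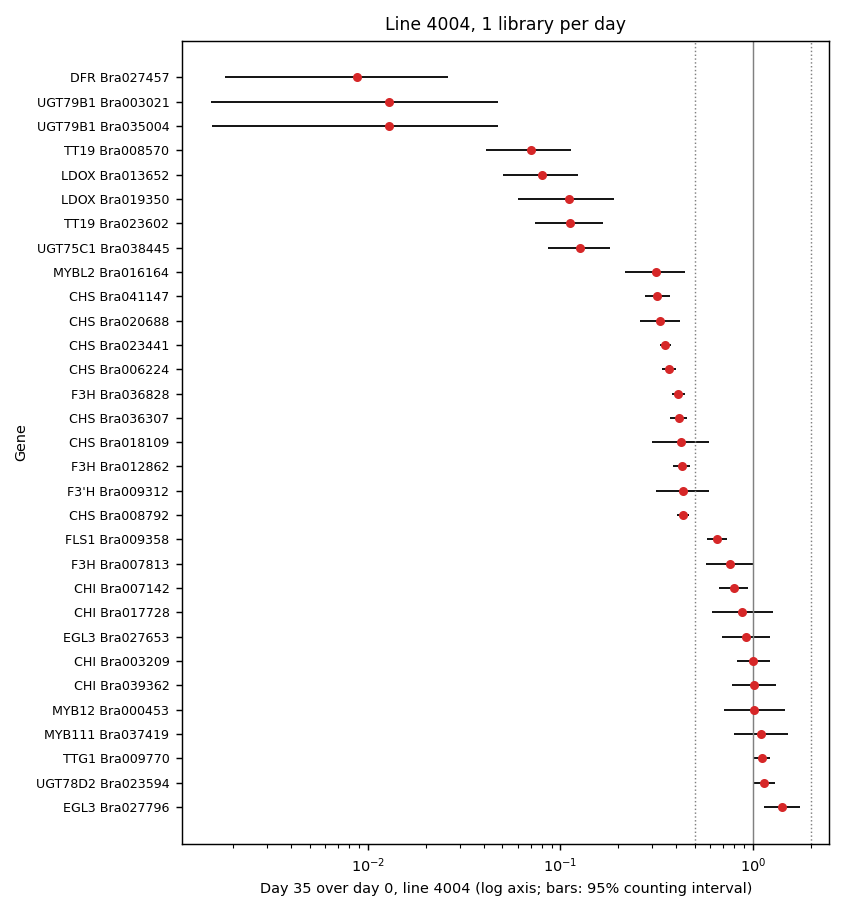
Ratio of day 35 to day 0 in line 4004 (log axis) for the 31 members with a mean of at least 50, with 95% counting intervals as bars and dotted lines at 2-fold. The late genes BrDFR, BrUGT79B1, BrTT19, BrLDOX and BrUGT75C1 lie furthest to the left, the 7 BrCHS genes lie between 2.31-fold and 3.14-fold lower, and BrCHI, BrTTG1 and BrUGT78D2 lie near 1.

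At day 35, 0 of 40 members were called between lines by edgeR, with 5 at an unadjusted p under 0.05. By edgeR 0.446% of all tested genes were called, 0.353% higher and 0.093% lower in line 4004, and 6.37% had an unadjusted p under 0.05. DESeq2 called 0 members, against 1.29% of all genes. BrDFR was at 3 in line 4004 and at 2, 10 and 2 in line 50 (log2 fold change -0.40 ± 0.997, adjusted p = 0.9997), and BrTT8 at 25 against 29, 31 and 27. BrCHS Bra023441 had 1123 against 445, 319 and 898 (0.91 ± 0.92, adjusted p = 0.9997), and 0.13 against replicate 3 alone. BrMYBL2 Bra016164 had 43 against 199, 151 and 161 (-2.07 ± 0.55, adjusted p = 0.343), and BrEGL3 Bra027796 had 208 against 84, 79 and 72 (1.32 ± 0.40, adjusted p = 0.463). Line 4004 lay above all line 50 libraries for 20 of 40 members (26.2% of all genes) and below them for 9 (16%).

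The difference of the 2 lines' responses was tested as an interaction. By edgeR 0 of 40 members and 0 of 31191 genes were called, with 6 members and 3.06% of all genes at an unadjusted p under 0.05. The estimate was -6.55 ± 1.01 for BrUGT79B1 Bra003021 (adjusted p = 0.952), -6.21 ± 1.29 for BrDFR (adjusted p = 0.9999), -3.90 ± 0.93 for BrPAP1 Bra001917 and -3.32 ± 0.68 for BrTT8. DESeq2 called 3 members, BrDFR and both BrUGT79B1 copies (adjusted p = 0.0170 each), of 65 genes in all, or 0.202%. The BrUGT79B1 copies are again read as 1 signal. The negative value of BrTT8 goes with a rise in line 50 beside 19 and 25 in line 4004, and that of BrDFR with 333 and 3 in line 4004 beside low values in line 50.

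BrBAN (AT1G61720), which serves seed coat tannins, had 3, 1 and 2 in line 50 at day 0 and 1 in line 4004 for Bra021318, and at most 3 in any library. It was among the 9 members too low to test, together with BrPAP1 Bra039763, BrPAP2, the second BrBAN gene, 3 of 4 BrFLS1 genes, 1 of 3 BrMYB111 genes and 1 of 3 BrTTG1 genes. A list of 7 further genes of seed coat tannins had 0 tested genes.

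Other genes of the pathway were counted by lists of Arabidopsis loci. The phenylpropanoid entry genes, which feed the pathway and lignin, had 0 of 18 tested genes called in any comparison, with 1 at an unadjusted p under 0.05 between lines at day 0 (13.5% of all genes), 4 at day 35 (6.37%), 4 over vernalization in line 50 (20.5%) and 0 for the interaction (3.06%). DESeq2 called 1 in each of the first 3 of these and 0 in the last, against 5.24%, 1.29%, 9.18% and 0.202% of all genes. Of 16 genes for other flavonoid and anthocyanin enzymes, 1 was called higher in line 4004 at day 0 and 0 lower, against 1.2% and 0.292% of all genes. DESeq2 called 3 of the 16, against 5.24%. The gene called by edgeR was 3AT1 (Bra030550), which encodes an anthocyanin acyltransferase. It had no reads in line 50 at day 0 (values 1, 1 and 2), 77 in line 4004 at day 0 and 1 at day 35. The value of 77 was 22.02-fold above a floor of 3 counts per line 50 library, without counting error. The edgeR adjusted p of 3AT1 between lines at day 0 was 0.00685. The gene passed the filter on low counts through the line 4004 day 0 library, so its call rests on the library that let it in. Its profile over the libraries was that of BrDFR and BrUGT79B1, and it was named after its values were seen. Over vernalization in line 50, 1 of the 16 rose and 0 fell, against 2.23% and 1.69% of all genes. It was OMT1 (Bra003009), a methyltransferase of flavonols and lignin precursors, and the other OMT1 genes were not called. Bra003009 had 93, 105 and 53 at day 0 and 869, 597 and 183 at day 35 (log2 fold change 2.70 ± 0.54, adjusted p = 0.0459).

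In line 50 over vernalization, 4 of 13 other activators rose and 0 fell, against 2.23% and 1.69% of all genes. They were BrPIF3 and 3 genes for BBX21, a B-box protein of light signalling. BBX21 Bra003748 had 217, 200 and 97 at day 0 and 1599, 1582 and 698 at day 35 (log2 fold change 2.92 ± 0.41, adjusted p = 0.0182). Of 28 other repressors 2 rose, each a gene for BBX25, and 0 fell, against the same 2.23% and 1.69%. A further BBX25 gene, Bra022838, was not called. Between lines at day 0, 1 of the 28 repressors was called lower and 0 higher, against 0.292% and 1.2% of all genes. The replicate block called 4 lower and 3 higher (7.58% of all genes either way), and DESeq2 called 9 (5.24%). The repressor called without the block was LBD37 (Bra031833), in Arabidopsis a nitrate-responsive repressor of anthocyanin genes, with 667, 574 and 354 in line 50 and 77 in line 4004 (-2.82 ± 0.49, adjusted p = 0.0482). TTG1, GL3 and EGL3 also act in leaf hairs, and 3 of 5 tested trichome genes fell in line 50, against 1.69% of all genes. They were GL2 (Bra003535), TTG2 and MYB23, and GL2 went from 81, 54 and 97 to 11, 11 and 14 (-2.70 ± 0.40, adjusted p = 0.0216). Trichome genes were called 0 times between lines at day 0, with 1 at an unadjusted p under 0.05 and 0 called by DESeq2.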

How the data were processed

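RNA-seq libraries of pooled plants were made with a TruSeq kit. The authors trimmed reads with SolexaQA, mapped them with Bowtie2 to a Brassica rapa gene set and then counted the reads of each gene. The counter, its strand setting and its treatment of multiply matching reads are not given in the sources used here. The deposited raw counts were used for all tests. The deposited normalized read counts are scores that the authors made with DESeq over these and 4 other libraries, and describe levels. They were not exactly the deposited counts divided by 1 factor per library. With a factor estimated from the data, 81.1% and 72.0% of genes lay within 1 of that quotient in line 50 replicate 3 at day 0 and day 35. In the other libraries it was 95.4% to 99.5%. Deposited log2 ratios of group means were not used. Line 4004 replicates 1 and 2 were not analysed here. No coordinates or sequences are given, since the gene identifiers could not be tied to the annotation at hand.

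Tests were run on the counts by edgeR 4.0.16 under R 4.3.3 (TMM, filterByExpr by group, quasi-likelihood F test) in 1 fit of 8 libraries and 4 groups, with 4 residual degrees of freedom, all from line 50. It covered 31191 genes, with Benjamini-Hochberg adjustment over all of them. A gene was called at adjusted p under 0.05 and absolute log2 fold change of at least 1. Per the methods, replicates were independent pools of plants. The common biological coefficient of variation was 0.398. DESeq2 1.42.0 was an alternative, with other scalings, filters, left-out libraries and a replicate block. Same-numbered line 50 libraries deviated together (correlations 0.446, 0.615 and 0.695), so the numbers were taken as pairs. Replicates 1 and 2 also correlated across numbers (0.473 and 0.563), and either with replicate 3 at -0.505 to -0.656, so the pairs mainly set replicate 3 apart. Replicates 1 and 2 differed beyond sampling noise and were counted separately. Scripts were tested on simulated data with 200 changed genes. The simulated spread was smaller than that of these data and the changed genes were well read. That test therefore says nothing about calls at low counts. Counting intervals are exact 95% intervals of reads (the count less 1), without biological spread. The members and lists were chosen with earlier results of these data known. Values per library are given for members called in any tested comparison, for the copy of each locus with the highest mean, and for the 5 members with the greatest change in line 4004 at a mean of at least 50. Other genes were named after their values were seen.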

Additional observations from a re-analysis of the deposited data

Results flagged for a closer look

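For 4 of the tested members every line 50 pair moved one way between day 0 and day 35 while line 4004 moved the opposite way. The line 4004 direction rests on 1 library per day. The share of all tested genes with this pattern was not computed, so the count of 4 says nothing about the members as a set. BrF3′H (Bra009312) changed by 13, 14 and 17 normalized read counts in line 50 replicates 1, 2 and 3 and by -75 in line 4004. BrFLS1 (Bra009358) changed by 374, 292 and 162 in line 50 and by -253 in line 4004. BrCHS Bra008792 changed by 180, 56 and 82 in line 50 and by -1376 in line 4004. BrTTG1 (Bra009770) changed by -108, -30 and -345 in line 50 and by 85 in line 4004. The edgeR test of the difference between the lines gave adjusted p = 0.9999 for each, and 0.254, 0.349, 0.263 and 0.761 in that order with the replicate block, so 0 of the 4 differences were called.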

How the results depend on the processing

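The count of members called for line 4004 over line 50 at day 0 was 5 and became 9 with DESeq2, 10 with the replicate block, 0 at the study's limit of a mean of at least 500, and 0 to 7 when each line 50 day 0 library was left out. The count for vernalization in line 50 was 1 and became 3 with DESeq2, 2 with no low count filter, 4 with the replicate block, 0 at the limit of 500, and 0 to 5 with libraries left out. For the interaction it was 0 and became 3 with DESeq2. Shares of all genes were not computed for libraries left out, the limit of 500 or no low count filter. The sign turned for BrLDOX Bra013652 at day 0 (-0.53 became 0.39 with the libraries numbered 3 only, an alternative chosen after seeing the data, 0.20 with the replicate block and -1.03 to 1.02 with 1 day 0 library left out, the highest without replicate 2). It turned for BrCHS Bra023441 over vernalization in line 50 (-0.38 became -0.96 to 0.64 with libraries left out, 0.64 without day 0 replicate 3 and 0.02 without replicate 3 of both days) and at day 35 between lines (0.91 became -0.092 with the block). Of the named members' values under the alternatives, 283 kept their side of the threshold and direction, 19 lost and 14 gained the call, 15 moved by more than the replicate spread and 6 turned. The cause was not tested. Scaling by library totals moved the median of all genes by 0.21 on the log2 scale at day 0 and by -0.19 for the interaction. The line 4004 count of 19 lower members was the same under library totals and with 1 subtracted. Low counts limit BrTT8, BrPAP1, BrPAP2 and BrBAN, and 1 library per day limits line 4004.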
